A study of Mus musculus with 6 samples.

Results

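Genes of the YAP/TAZ pathway were followed across 6 RNA-sequencing libraries of mouse jejunal organoids. The set was given as 10 gene names and consisted of the coactivator genes Yap1 and Wwtr1 (which encodes TAZ), the DNA-binding partner genes Tead1, Tead3 and Tead4, the inhibitory kinase genes Lats1 and Lats2, and Amotl2, Ctgf and Cyr61, which are genes that YAP and TAZ activate. All 10 of 10 were found by symbol among 18448 genes, and all 10 passed the filter on low counts. Organoids are epithelial cultures that grow from intestinal crypts. They came from the jejunum of C57BL/6 mice with the genotype Villin-CreERT2; Hnf4aflox/flox, in which the villin promoter drives a tamoxifen-inducible Cre recombinase in intestinal epithelium. In the 4OHT group (3 libraries), organoids received 0.5 µM of 4-hydroxytamoxifen for 24 hours to delete Hnf4a, a nuclear receptor of enterocyte identity, and were then split. In the DMSO group (3 libraries) they received the vehicle, carried the same floxed alleles and Cre, and are therefore not wild type. Both groups received 200 ng/mL of recombinant Wnt3A, and RNA was taken on day 2 after the last passage. Since every library has the same genotype, an action of 4OHT or of active Cre and the loss of Hnf4a cannot be told apart.

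YAP and TAZ are carried into the nucleus when the Hippo kinases are inactive, where they bind TEAD proteins and switch on target genes. The kinases STK3 and STK4 activate LATS1 and LATS2, which phosphorylate YAP and TAZ so that they are held in the cytoplasm and degraded. In the intestine the pathway is known for its part in regeneration after injury, when the epithelium takes on a fetal-like state. Activity is set largely by phosphorylation and location of the proteins, which RNA levels do not measure.

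TEAD proteins bind the sequence GGAATG, and the promoters of 7 of the 10 genes were found in a RefSeq table on GRCm38.p6 as windows of 300 bases, from 250 before to 50 after each start. Tead1, Tead4 and Ctgf were not matched. GGAATG, or CATTCC where it lies on the other strand, occurred in at least 1 window of 6 of the 7 genes (Yap1, Wwtr1, Tead3, Lats2, Amotl2 and Cyr61), and in 16.6% of the 27025 genes with a window. In Lats2 the only match lay after the start. Some genes have several windows, and 8 of the 11 windows of the 7 genes held the motif, beside 14.7% of all windows. The 250 bases before the start are printed for 3 genes, 5′ to 3′ with the motif in capitals. Yap1 and Wwtr1 are shown because they are the coactivator genes of the pathway, and Cyr61 because it is a target gene of theirs. The windows lie on the minus strand, at chr9:8004597-8004846 for Yap1, chr3:57575911-57576160 for Wwtr1 (of the 2 starts listed, the more distal) and chr3:145649986-145650235 for Cyr61.

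Yap1: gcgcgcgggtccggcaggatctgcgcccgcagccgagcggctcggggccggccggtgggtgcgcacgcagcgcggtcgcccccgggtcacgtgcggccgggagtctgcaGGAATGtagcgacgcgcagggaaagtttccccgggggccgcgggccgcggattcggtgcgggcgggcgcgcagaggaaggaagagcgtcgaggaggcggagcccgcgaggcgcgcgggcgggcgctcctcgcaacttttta

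Wwtr1: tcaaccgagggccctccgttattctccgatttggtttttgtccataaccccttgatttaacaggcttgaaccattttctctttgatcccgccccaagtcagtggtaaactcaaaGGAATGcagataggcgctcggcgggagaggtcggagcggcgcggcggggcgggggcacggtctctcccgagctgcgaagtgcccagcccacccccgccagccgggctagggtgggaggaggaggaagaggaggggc

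Cyr61: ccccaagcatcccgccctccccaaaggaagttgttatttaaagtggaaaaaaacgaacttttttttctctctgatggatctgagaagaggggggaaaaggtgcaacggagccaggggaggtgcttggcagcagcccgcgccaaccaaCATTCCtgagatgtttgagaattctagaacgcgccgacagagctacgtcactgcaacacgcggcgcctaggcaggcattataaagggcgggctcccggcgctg

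The motif began 141 bases before the start of Yap1, 136 bases before that of Wwtr1 and 103 bases before that of Cyr61, where it is read on the opposite strand. A match of letters is a description and does not show that a TEAD protein binds there.

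The 6 libraries held between 31537100 and 40276242 counts. The filter on low counts kept 14544 genes. Hnf4a, the gene targeted by the design, was at 840, 846 and 1021 CPM in DMSO replicates 1, 2 and 3 and at 436, 424 and 482 CPM in the 4OHT replicates (edgeR adjusted p = 0.0124). With 1 library left out the edgeR adjusted p was 0.00543 without DMSO replicate 3 and 0.0572 to 0.0951 without any of the other 5. CPM is the gene's count relative to the scaled library size, and the count spans the whole gene, the deleted part and the rest. Epithelial markers were abundant in every library: the summed level of 8 of them was 14030 to 18400 CPM in DMSO and 16560 to 20120 CPM after 4OHT. Of 10 mesenchymal markers, 7 (Col1a2, Col3a1, Dcn, Lum, Acta2, Des and Twist1) had no row in the table used here, and the other 3 summed to 0.945 to 1.92 CPM in DMSO and 1.10 to 1.76 CPM after 4OHT. The 2 of 4 endothelial and 3 of 5 immune markers that had a row each summed to at most 3.12 CPM in any library. DMSO replicate 3 stood apart from the other DMSO libraries. Against the mean of DMSO replicates 1 and 2 its median difference was 0.92 on the log2 scale for 8 enterocyte markers and 1.0 for 4 goblet cell markers, and 0.00 for all tested genes.

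None of the 10 genes passed the threshold in the comparison of 4OHT with DMSO: edgeR called 0 of 10 (adjusted p under 0.05 over all tested genes), where 0.908% of all tested genes were called. At an unadjusted p under 0.05 there were 2 of 10, Tead4 and Wwtr1, both higher, where 8.65% of tested genes were higher at that level. DESeq2 called the same 2 (3.62% of genes higher by that rule) and limma-voom called 0 (0.846% of genes in either direction). Replicate numbers occur in both groups and behaved as pairs. With the replicate number as a block in the model edgeR called 1 of 10, Wwtr1, as higher, where 3.99% of tested genes were called higher. The median log2 fold change of the 10 genes was 0.20, beside 0.00 for all tested genes. In bulk RNA, a change in the share of cells that express a gene and a change in the RNA per cell cannot be told apart.

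**Figure D1:**
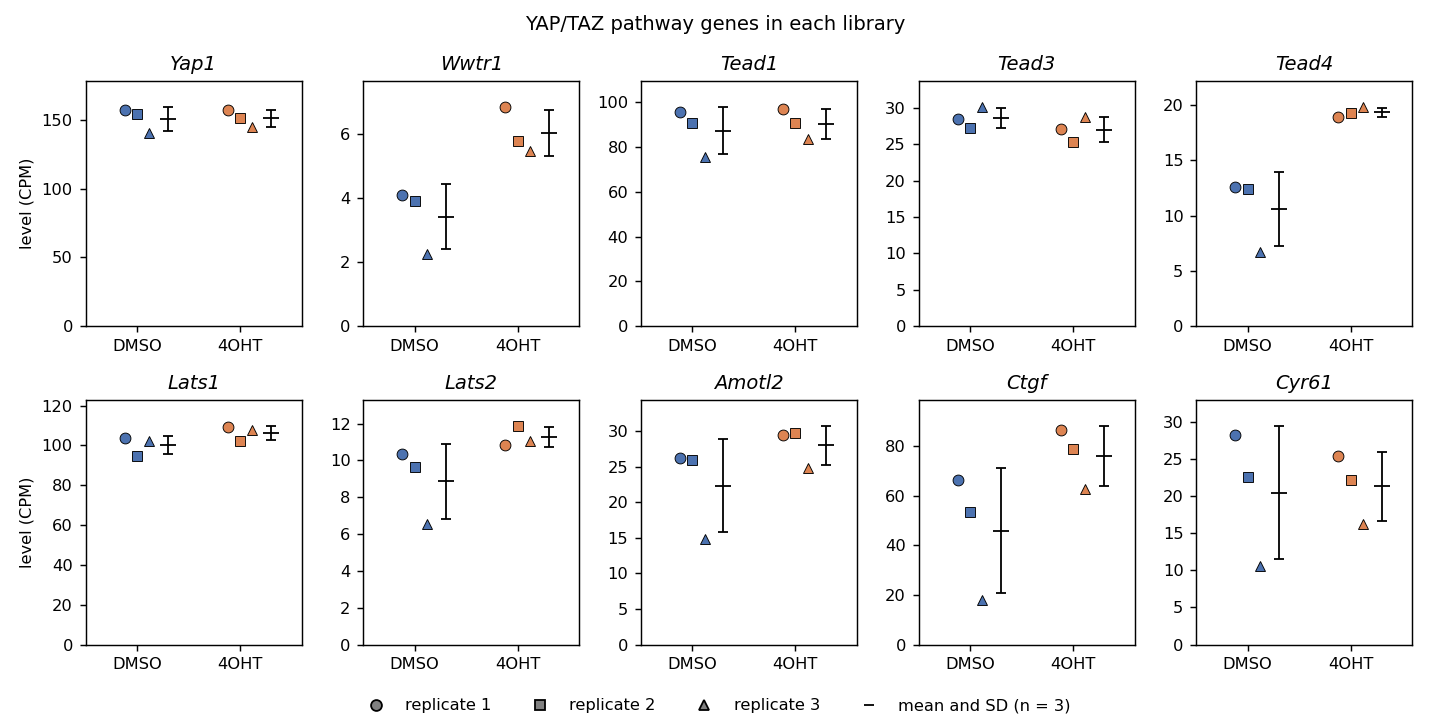
Level of each gene in CPM (vertical axes, from 0) in the 3 DMSO and 3 4OHT libraries, with the mean and SD (n = 3) beside the points. The 4OHT points of Wwtr1, Tead4 and Lats2 all lie above their DMSO points, as for 12.5% of tested genes. DMSO replicate 3 (triangle) was the lowest of the 6 libraries for 8 of the 10 genes, as for 28.7% of tested genes.

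In edgeR neither coactivator gene passed the threshold without the block, and Wwtr1 did with it. Of all tested genes 0.908% passed without the block, and 3.99% were called higher with it. Yap1 (ENSMUSG00000053110, chromosome 9 from 7931999 to 8004596, minus strand, GRCm38) was at 157, 154 and 141 CPM in DMSO replicates 1, 2 and 3 and at 158, 152 and 145 CPM in 4OHT replicates 1, 2 and 3. The groups overlapped, with replicate 3 the lowest in each. The log2 fold change was 0.01 with a 95% interval from -0.15 to 0.16 (SE 0.065, edgeR adjusted p = 0.973).

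Wwtr1, the TAZ gene (ENSMUSG00000027803, chromosome 3 from 57455649 to 57575910, minus strand), was at 4.09, 3.92 and 2.24 CPM in DMSO replicates 1, 2 and 3 and at 6.84, 5.79 and 5.46 CPM in the 4OHT replicates. Every 4OHT library was above every DMSO library. The mean level was 3.42 ± 1.02 CPM in DMSO against 6.03 ± 0.722 CPM after 4OHT (SD, n = 3), with a fitted difference of 1.76-fold (log2 fold change 0.81, SE 0.236). This missed the threshold without the block (edgeR adjusted p = 0.171). With the replicate block Wwtr1 rose (0.84, SE 0.167, edgeR adjusted p = 0.0436), and it was called by DESeq2 too (adjusted p = 0.0330). Without DMSO replicate 3 its log2 fold change was 0.58 and missed the threshold (edgeR adjusted p = 0.116). It also missed without replicate 3 of both groups (0.65, edgeR adjusted p = 0.0666). Within replicate numbers the log2 ratio was 0.74, 0.56 and 1.26. The gene was sequenced thinly: its lowest library, DMSO replicate 3, held 69 counts (95% Poisson interval 53.7 to 87.3, counting error only) and its highest, 4OHT replicate 1, held 239 (209.7 to 271.3).

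Per kilobase of annotated exon, Wwtr1 was the lowest of the 10 genes in both groups and Yap1 among the highest. The level of Yap1 was 16.3 ± 0.954 CPM per kb in DMSO and 16.4 ± 0.688 after 4OHT (SD, n = 3). For Wwtr1 it was 0.715 ± 0.213 and 1.26 ± 0.151 CPM per kb. Wwtr1 thus made up 4.80%, 4.69% and 3.00% of the summed Yap1 and Wwtr1 level in the DMSO libraries and 7.76%, 6.88% and 6.81% in the 4OHT libraries. These shares did not overlap (exact permutation test, two-sided p = 0.10, the smallest that 3 against 3 libraries can give). The share was chosen after the levels had been seen.

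The TEAD genes encode the DNA-binding part of the complex, and of Tead1, Tead3 and Tead4 edgeR called 0, with or without the block. It called 0.908% of all tested genes without the block, and 3.99% higher and 3.00% lower with it. Tead4 (ENSMUSG00000030353, chromosome 6 from 128224288 to 128300823, minus strand) was at 12.6, 12.4 and 6.69 CPM in DMSO replicates 1, 2 and 3 and at 18.9, 19.3 and 19.8 CPM in the 4OHT replicates. The 4OHT libraries lay within 1 CPM of each other and all above the DMSO libraries, of which replicate 3 was far the lowest. The mean level was 10.6 ± 3.36 CPM in DMSO against 19.4 ± 0.445 CPM after 4OHT (SD, n = 3). The fitted difference was 1.83-fold (log2 fold change 0.87, SE 0.225) and missed the threshold (edgeR adjusted p = 0.136, and 0.0527 with the replicate block). Tead4 passed by DESeq2 (adjusted p = 0.00657). It also passed in edgeR without DMSO replicate 3, where the difference was smaller (0.62, adjusted p = 0.0158, with 1.71% of genes called higher). Leaving out replicate 3 of both groups gave 0.61 (adjusted p = 0.0147, with 2.59% called higher). In the authors' deposited table Tead4 had a log2 fold change of 0.871 with adjusted p of 0.0017 from DESeq and 0.0049 from edgeR, and Wwtr1 had 0.814 with 0.12 and 0.031.

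Tead1 (ENSMUSG00000055320, chromosome 7 from 112679318 to 112906807, plus strand) was at 95.7, 90.8 and 75.5 CPM in DMSO and at 97.0, 90.7 and 83.4 CPM in the 4OHT replicates 1, 2 and 3. The values of the 2 groups interleaved, and the log2 fold change was 0.05 (95% interval -0.19 to 0.29, edgeR adjusted p = 0.868). Tead3 (ENSMUSG00000002249, chromosome 17 from 28331671 to 28350817, minus strand) was at 28.5, 27.3 and 30.1 CPM in DMSO and at 27.1, 25.3 and 28.8 CPM after 4OHT. It was the only 1 of the 10 genes with a negative log2 fold change (-0.08, 95% interval -0.26 to 0.10, edgeR adjusted p = 0.665), and the only 1 that was lower in all 3 pairs, where 24.5% of tested genes were. Tead2, the remaining TEAD gene, was at 27.8, 29.9 and 17.2 CPM in DMSO and at 36.3, 34.9 and 24.1 CPM after 4OHT (0.35, edgeR adjusted p = 0.545). With the replicate block Tead2 rose (0.36, edgeR adjusted p = 0.0403), and without DMSO replicate 3 it was at 0.13 (edgeR adjusted p = 0.757).

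The makeup of TEAD transcripts was compared as each gene's share of the summed level per kb of Tead1, Tead2, Tead3 and Tead4. Tead4 made up 17.0%, 16.8% and 12% in DMSO and 21.9%, 23.2% and 26.3% after 4OHT, with no overlap. Tead1 made up 34.2%, 32.7% and 35.9% in DMSO and 29.8%, 28.9% and 29.3% after 4OHT, also with no overlap. Both gave a two-sided p of 0.10 in the exact permutation test, the smallest that the design allows. These shares too were chosen after the levels had been seen. They are parts of the same sum, so the share of Tead1 can fall when Tead4 rises. The level of Tead1 itself had a log2 fold change of 0.05 (edgeR adjusted p = 0.868). The shares of Tead2 (exact permutation p = 0.50) and Tead3 (exact permutation p = 0.20) overlapped between the groups. Tead1, the largest share in every DMSO library, was below Tead2 in 4OHT replicates 1 and 2.

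**Figure D2:**
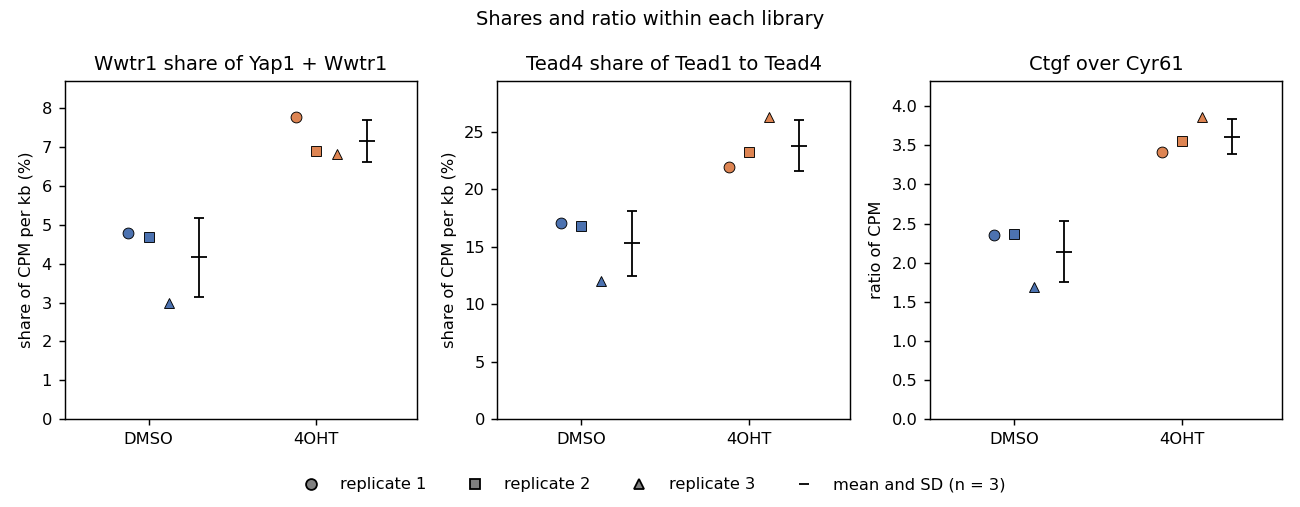
Share of Wwtr1 in the summed Yap1 and Wwtr1 level per kb, share of Tead4 in the summed level per kb of Tead1 to Tead4, and the ratio of Ctgf to Cyr61 in CPM, in each library (vertical axes from 0), with mean and SD (n = 3). In all 3 panels every 4OHT library lies above every DMSO library, as with Tead4 at 21.9% to 26.3% after 4OHT and 12% to 17.0% in DMSO.

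Of the inhibitory kinase genes edgeR called 0, with or without the block. Among all tested genes 0.908% were called without the block, and 3.99% higher and 3.00% lower with it. Lats1 (ENSMUSG00000040021, chromosome 10 from 7681214 to 7716460, plus strand) was at 104, 94.9 and 102 CPM in DMSO and at 109, 102 and 108 CPM after 4OHT. The groups overlapped, and the log2 fold change was 0.09 (95% interval -0.05 to 0.22, edgeR adjusted p = 0.541). Lats2, which YAP and TAZ also activate as a feedback inhibitor (ENSMUSG00000021959, chromosome 14 from 57689662 to 57758388, minus strand), was at 10.4, 9.64 and 6.56 CPM in DMSO and at 10.9, 11.9 and 11.1 CPM after 4OHT. Its groups did not overlap, but 4OHT replicate 1 exceeded DMSO replicate 1 by little. The log2 fold change was 0.34 (95% interval -0.06 to 0.75, edgeR adjusted p = 0.410), and it was 0.16 without DMSO replicate 3 (adjusted p = 0.474). Lats2, Wwtr1 and Tead4 were the 3 of 10 genes with no overlap and higher after 4OHT, where 12.5% of tested genes were so.

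Of the target genes Ctgf, Cyr61 and Amotl2, 0 passed the threshold in edgeR without the block, where 0.908% of tested genes did. Ctgf, which encodes the matricellular protein CCN2 (ENSMUSG00000019997, chromosome 10 from 24595442 to 24598683, plus strand), was at 66.5, 53.5 and 17.9 CPM in DMSO replicates 1, 2 and 3 and at 86.7, 78.7 and 62.8 CPM in the 4OHT replicates. DMSO replicate 3 held less than any other library, and DMSO replicate 1 lay above 4OHT replicate 3, so the groups overlapped. The mean level was 45.9 ± 25.2 CPM in DMSO against 76.1 ± 12.2 CPM after 4OHT (SD, n = 3). The fitted difference was 1.65-fold (log2 fold change 0.73, SE 0.419) and missed the threshold (edgeR adjusted p = 0.474, and 0.109 with the block). Within replicate numbers the log2 ratio of Ctgf was 0.38, 0.56 and 1.81. Without DMSO replicate 3 the log2 fold change was 0.34 (adjusted p = 0.333). A setting added after the data had been seen used the block and left replicate 3 out of both groups. There Ctgf was called higher (0.46, edgeR adjusted p = 9.18e-07), where 10.1% of tested genes were called higher. That fit leaves 1 residual degree of freedom per gene. The same libraries without the block gave an edgeR adjusted p of 0.0646.

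Cyr61, which encodes the related protein CCN1 (ENSMUSG00000028195, chromosome 3 from 145646976 to 145649981, minus strand), was at 28.2, 22.6 and 10.6 CPM in DMSO and at 25.4, 22.2 and 16.3 CPM after 4OHT. Replicate 3 was the lowest in each group, and the groups overlapped. The log2 fold change was 0.05 (95% interval -0.75 to 0.86, edgeR adjusted p = 0.960), and it was -0.26 without DMSO replicate 3 (adjusted p = 0.549). In replicates 1 and 2 Cyr61 was lower after 4OHT (log2 ratios -0.15 and -0.03) and in replicate 3 it was higher (0.62).

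The ratio of Ctgf to Cyr61 within a library did not overlap between the groups. It was 2.36, 2.37 and 1.69 in DMSO replicates 1, 2 and 3 and 3.42, 3.55 and 3.86 in the 4OHT replicates (means 2.14 ± 0.389 and 3.61 ± 0.226, SD, n = 3). The exact permutation test gave a two-sided p of 0.10, the smallest possible with 3 libraries in each group, and the ratio was chosen after the values had been seen. Exons of Ctgf overlap an antisense gene, Gm15270, which held 252 counts over the 6 libraries against 550 to 3029 for Ctgf in a single library. Exons of Lats2 and Yap1 overlap Gm49361 and Gm20416, which had no row in the table used here. The strand setting of the counting was not given in the sources used here.

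Amotl2, a junctional protein gene that YAP and TAZ activate and whose product holds YAP in the cytoplasm (ENSMUSG00000032531, chromosome 9 from 102716672 to 102733418, plus strand), was at 26.2, 26.0 and 14.8 CPM in DMSO and at 29.4, 29.7 and 24.8 CPM after 4OHT. Apart from DMSO replicate 3 the libraries lay between 24.8 and 29.7 CPM, with 4OHT replicate 3 below DMSO replicates 1 and 2. The log2 fold change was 0.32 (95% interval -0.19 to 0.83, edgeR adjusted p = 0.539) and 0.09 without DMSO replicate 3 (adjusted p = 0.688).

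**Figure D3:**
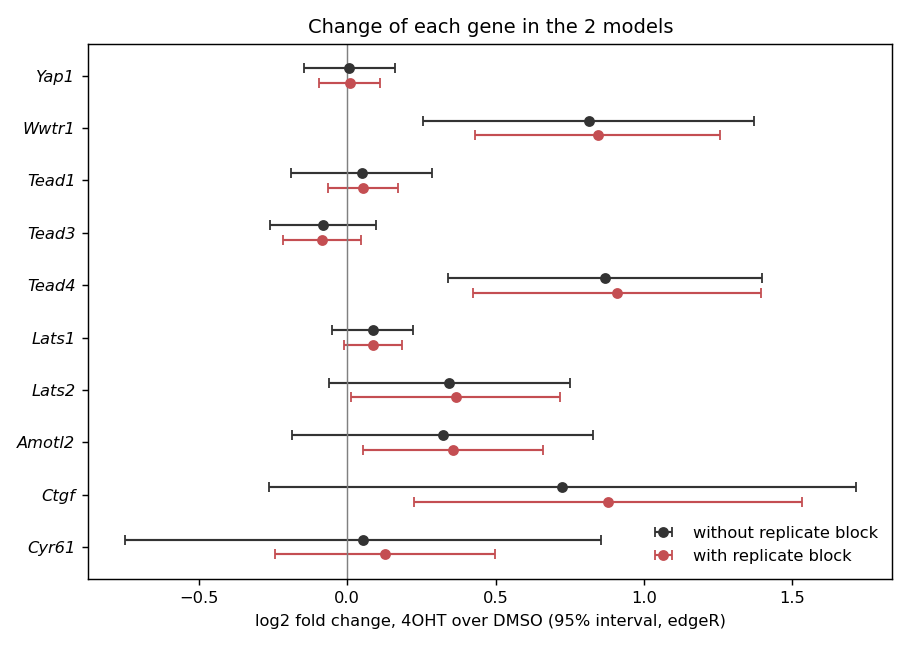
Log2 fold change of 4OHT over DMSO with its 95% interval for each gene, from edgeR without and with the replicate number as a block. The intervals of Wwtr1 and Tead4 lie above 0 in both fits, those of Lats2, Amotl2 and Ctgf do so only with the block, and those of Yap1 and Tead1 are narrow around 0. The intervals are not adjusted for the number of genes.

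The ratio of 4OHT to DMSO was highest in replicate 3 for 9 of the 10 genes (all but Lats1), which held for 38.8% of tested genes. DMSO replicate 3 was the lowest of the 6 libraries for 8 of the 10, the exceptions being Tead3 and Lats1, and for 28.7% of tested genes. Against the mean of DMSO replicates 1 and 2, DMSO replicate 3 was lower by a log2 difference of -1.74 for Ctgf, -1.25 for Cyr61, -0.90 for Tead4, -0.82 for Wwtr1, -0.82 for Amotl2 and -0.60 for Lats2, beside -0.15 for Yap1 and 0.05 for Lats1. In 4OHT replicate 3 the same difference was -0.40 for Ctgf, -0.54 for Cyr61 and 0.05 for Tead4. There it was -0.20 for Wwtr1, -0.25 for Amotl2 and -0.04 for Lats2, beside -0.09 for Yap1 and 0.03 for Lats1. DMSO replicate 3 was also the DMSO library higher in enterocyte and goblet cell markers. In 4OHT replicate 3 the median difference of those markers was 0.40 and 0.59. Between the groups, all 8 enterocyte markers had a negative log2 fold change (median -0.53, 0 called by edgeR and 2 lower with the block), as had all 4 stem cell markers (median -0.35, 0 called in either fit). All 4 goblet cell markers had a positive one (median 0.75, 0 called by edgeR and 4 higher with the block). Of all tested genes 7149 had a positive and 7395 a negative log2 fold change. edgeR called 0.908% of them, and with the block 3.99% higher and 3.00% lower. Of 4 Paneth cell markers 2 had a positive and 2 a negative one (median -0.05). Among these, edgeR called 1, Lyz1, as lower (-0.78, adjusted p = 0.0318). The part of cell composition in the differences of the pathway genes was not tested. In 6 of the 10 genes (Wwtr1, Tead4, Lats1, Lats2, Amotl2 and Ctgf) the level was higher after 4OHT in all 3 pairs, beside 25.3% of tested genes.

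**Figure D4:**
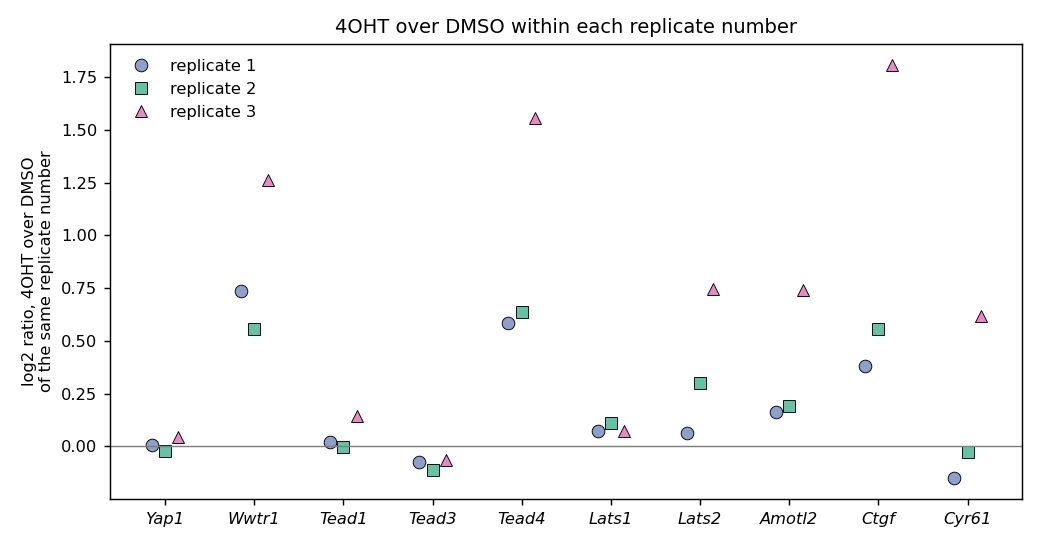
Log2 ratio of the 4OHT to the DMSO library with the same replicate number (vertical axis) for each gene. Wwtr1, Tead4 and Ctgf lie above 0 in all 3 replicates, Ctgf at 0.38, 0.56 and 1.81, while Yap1, Tead1, Tead3 and Lats1 lie near 0 and Cyr61 is above 0 in replicate 3 only.

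Per kb of exon, the order of mean levels differed between the groups at the top and in the middle. In DMSO it ran from Yap1 (16.3 CPM per kb) through Ctgf (16.1), Lats1 (13.7), Cyr61 (10.1), Tead1 (6.44), Tead3 (4.27), Amotl2 (3.55), Tead4 (2.94) and Lats2 (1.27) to Wwtr1 (0.715). Neighbours from Yap1 down to Tead1, and from Tead3 down to Tead4, differed by less than the larger SD of the pair. The DMSO mean of Ctgf includes DMSO replicate 3, at 17.9 CPM beside 66.5 and 53.5 CPM in DMSO replicates 1 and 2. In DMSO replicates 1 and 2 Ctgf was above Yap1 per kb, and Ctgf missed the threshold between the groups (edgeR adjusted p = 0.474). After 4OHT it ran from Ctgf (26.6 CPM per kb) through Yap1 (16.4), Lats1 (14.6), Cyr61 (10.5), Tead1 (6.66), Tead4 (5.38), Amotl2 (4.45), Tead3 (4.03) and Lats2 (1.62) to Wwtr1 (1.26). There, only Amotl2 and Tead3 differed by less than the larger SD of the pair. Exon length counts every annotated exon of a gene, so a gene with unused exons is placed too low.

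Other genes of the pathway were read from lists taken from general knowledge of the pathway. The lists were chosen with earlier results of these data known, so their counts are a description. In all, 45 tested genes of 5 lists were counted (Ptpn14 is in 2 of them), of which edgeR called 0, limma-voom 0 and DESeq2 7, all higher, where 3.62% of tested genes were called higher by DESeq2. With the replicate block 6 of the 45 rose and 0 fell, where 3.99% of tested genes were called higher and 3.00% lower.

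Upstream, the 13 Hippo kinase, scaffold and activator genes included 0 called by edgeR. Of the 13, 2 were higher at an unadjusted p under 0.05 (8.65% of all tested genes) and 1 was called with the block (3.99% called higher), with a median log2 fold change of 0.11. Wwc2, a relative of the KIBRA scaffold gene, was at 26.2, 24.3 and 13.5 CPM in DMSO and at 34.6, 37.8 and 31.9 CPM after 4OHT (0.70, edgeR adjusted p = 0.222). With the block it rose (0.75, edgeR adjusted p = 0.0479). Stk3, the MST2 kinase gene, had a log2 fold change of 0.17 (edgeR adjusted p = 0.303), Wwc1, which encodes KIBRA, of 0.22 (adjusted p = 0.335) and Sav1, which encodes the scaffold of the kinases, of 0.13 (adjusted p = 0.381). Without DMSO replicate 3 the log2 fold change was 0.45 for Wwc2 and 0.12 for Wwc1.

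Of 8 junctional and cytoplasmic partner genes 6 were tested, 0 were called by edgeR (1 higher and 0 lower had an unadjusted p under 0.05, beside 8.65% of all tested genes higher) and the median log2 fold change was 0.25. Ptpn14, a phosphatase gene whose product binds YAP, was at 26.9, 27.3 and 16.4 CPM in DMSO and at 35.1, 38.7 and 29.8 CPM after 4OHT (0.55, edgeR adjusted p = 0.264). With the block Ptpn14 rose (0.58, edgeR adjusted p = 0.0312), as 1 of the 6 (3.99% of all tested genes). The angiomotin genes differed in sign: Amotl1 had a log2 fold change of 0.80 (edgeR adjusted p = 0.335) and Amot of -0.10 (adjusted p = 0.413). Ajuba, which encodes a LIM protein that binds LATS kinases, had 0.47 (adjusted p = 0.437). Without DMSO replicate 3 the log2 fold change was 0.48 for Amotl1, 0.34 for Ptpn14 and 0.20 for Ajuba.

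Among other TEAD-binding factors 3 of 5 were tested and edgeR called 0. At an unadjusted p under 0.05, 1 was higher and 0 lower, beside 8.65% of all tested genes higher. The block added Tead2, beside 3.99% of all tested genes called higher. Vgll3, a TEAD cofactor gene, was at 8.95, 8.03 and 3.48 CPM in DMSO and at 13.4, 15.1 and 15.2 CPM after 4OHT. The log2 fold change of Vgll3 was 1.09 (SE 0.31, edgeR adjusted p = 0.165). Its groups did not overlap, and it passed without DMSO replicate 3 (0.77, adjusted p = 0.0225). Vgll4, a TEAD-binding repressor gene, had -0.07 (adjusted p = 0.822), and 0.06 without 4OHT replicate 3.

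Of 18 further genes of a YAP/TAZ target signature 14 were tested. Called were 0 by edgeR and 1, Ptpn14, with the block (3.99% of all tested genes called higher). At an unadjusted p under 0.05, 3 of the 14 were higher (8.65% of all tested genes) and 0 lower. Log2 fold changes were positive for 10 and negative for 4, with a median of 0.15. Myof, which encodes the membrane repair protein myoferlin, was at 65.8, 54.8 and 26.4 CPM in DMSO and at 87.2, 94.5 and 81.2 CPM after 4OHT (0.84, edgeR adjusted p = 0.249). It passed without DMSO replicate 3 (0.53, adjusted p = 0.0456). Asap1, an ARF GTPase-activating protein gene, had 0.56 (adjusted p = 0.292) and Gadd45a, a DNA damage response gene, -0.32 (adjusted p = 0.372). Without DMSO replicate 3 these were 0.35 and -0.18. Of the 4 other CCN family genes 1, Nov, had a row in the table, at 0.0252 to 0.136 CPM, and was below the filter.

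YAP-linked regeneration genes of the intestine had the largest median of the lists, at 0.89 over 10 tested of 12 listed, and all 10 log2 fold changes were positive. edgeR called 0 of them, and 6 of the 10 were higher at an unadjusted p under 0.05 (8.65% of all tested genes). With the block 3 rose (3.99% of all tested genes called higher). Among them were Sprr1a, a cornified envelope gene (1.67, edgeR adjusted p = 0.0170), and Ly6a, the Sca-1 gene (1.10, adjusted p = 0.0342). Without the block Sprr1a was at 1.83 (edgeR adjusted p = 0.138) and Ly6a at 1.03 (adjusted p = 0.185). Neither passed without DMSO replicate 3, at 2.09 (edgeR adjusted p = 0.111) for Sprr1a and 0.72 (adjusted p = 0.0555) for Ly6a. Il1rn, the interleukin 1 receptor antagonist gene, was at 137, 113 and 66.4 CPM in DMSO and at 208, 173 and 223 CPM after 4OHT (0.93, edgeR adjusted p = 0.145), and it passed without DMSO replicate 3 (0.68, adjusted p = 0.0475). In DMSO replicate 3 these genes had a median log2 difference of -1.15 from DMSO replicates 1 and 2, and -0.03 in 4OHT replicate 3 from 4OHT replicates 1 and 2. Of the 10, 9 were lowest in DMSO replicate 3, the library that stood apart, and the exception was Sprr1a. The part of that library in the median was not tested.

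**Figure D5:**
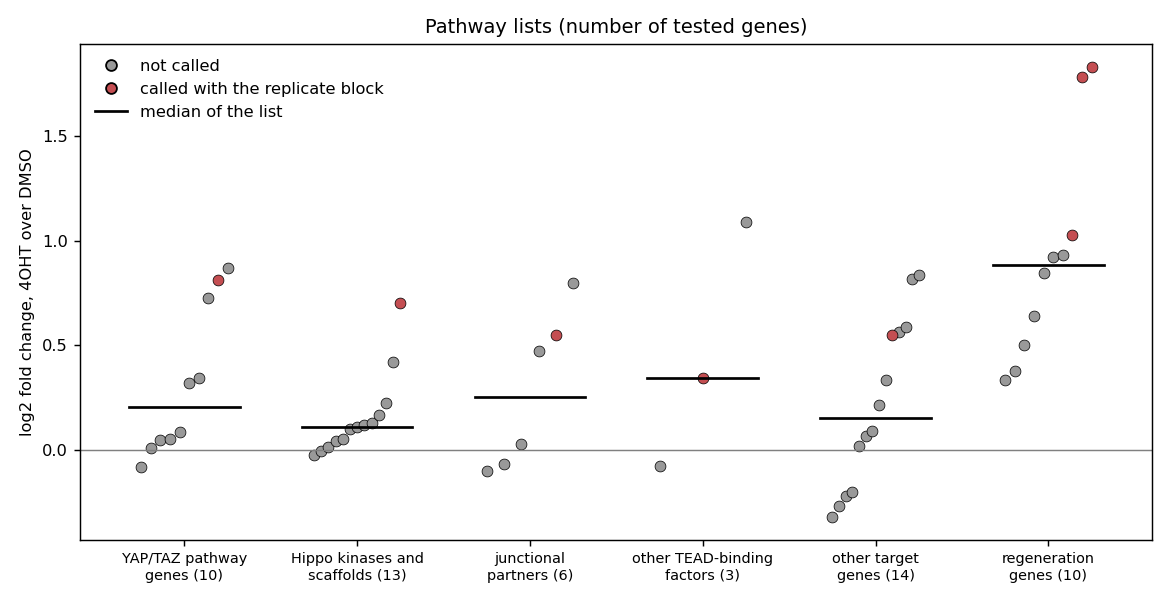
Log2 fold change of 4OHT over DMSO (vertical axis, edgeR without the block) for every tested gene of the 10 pathway genes and of 5 further lists, with the median of each list as a bar and genes called with the replicate block in red. Medians run from 0.11 for the Hippo kinases and scaffolds to 0.89 for the regeneration genes, and 0 genes passed without the block.

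The genes whose profile over the 6 libraries was nearest to that of Ctgf and of Cyr61 were named by the root mean square difference of centred log2 CPM, among 9373 other genes whose mean was 10 CPM or more. For Ctgf they were Adam8, which encodes a metalloprotease (0.067), Mdfi, which encodes an inhibitor of myogenic factors (0.10), and Elk3, an ETS transcription factor gene (0.14). Adam8 was at 14.6, 11.95 and 4.19 CPM in DMSO and at 18.8, 16.9 and 12.7 CPM after 4OHT, and like Ctgf it was lowest in DMSO replicate 3. For Cyr61 they were Cd44, the hyaluronan receptor gene (0.11), Fmnl2, a formin gene (0.13), and Itgb6, an integrin gene (0.13). Cd44 was at 217, 195 and 105 CPM in DMSO and at 208, 198 and 142 CPM after 4OHT. The difference between Ctgf and Cyr61 themselves was 0.42, which placed Cyr61 at rank 125 for Ctgf and Ctgf at rank 1963 for Cyr61. With 6 libraries, of which DMSO replicate 3 sets much of each profile, nearness is a description of these libraries.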

How the data were processed

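The 10 genes and the pathway lists were chosen with earlier results of these data known. Poly(A) RNA was made into directional libraries, per the labels' protocols. STAR 2.4.0f1, bcl2fastq 1.8.4 and GRCm38 are named, per the submitters' processing notes, and the counting program and strand setting are not given in the sources used here. The authors deposited raw counts per gene, which were used for every test. They also deposited a normalised score per library (rounded, not used here), log2 fold changes, mean log2 levels and p-values from DESeq and edgeR, per the file headers, of which log2 fold changes and p-values of 2 genes are quoted.

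GENCODE M21 held 18351 of the 18448 identifiers and gave coordinates and exon lengths on GRCm38. Counts were tested in R 4.3.3 with edgeR 4.0.16 (filterByExpr, TMM scaling, quasi-likelihood F test, two-sided, Benjamini-Hochberg over 14544 genes, threshold 0.05), with limma 3.58.1 and DESeq2 1.42.0 as alternatives. The test was checked on simulated data in which libraries were drawn independently. That check does not cover paired libraries or a library that stands apart. SE is the absolute log2 fold change over the square root of F. Log2 CPM within pairs used a prior count of 2. Across genes, same-numbered libraries of the 2 groups deviated together (correlations of 0.30, 0.33 and 0.43 after subtracting each group's mean). The replicate numbers were treated as pairs on this ground alone, since the labels do not state a pairing. The labels do not say that replicates came from separate animals or cultures, so the p-values rest on library-to-library spread that could be technical. Library totals were 31537100 to 40276242 counts.

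Named were the 10 genes, Hnf4a, up to 4 tested genes with the smallest p from each list, and for Ctgf and Cyr61 the 3 nearest profiles at a mean of at least 10 CPM. The values of 1 gene that this rule names are not reported here. Alternatives were other scalings, filters and tools, the replicate block, and leaving out libraries.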

Additional observations from a re-analysis of the deposited data

How the results depend on the processing

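The count of all called genes was 132. It was 1017 with the replicate block, 762 by DESeq2, 49 with a mean of at least 10 CPM, 4 to 340 with 1 library left out (340 without DMSO replicate 3, 4 without DMSO replicate 2), 601 without replicate 3 of both groups, and 2678 without replicate 3 of both groups with the replicate block. Of the 10 pathway genes, where 0 were called, 1 passed with the replicate block, 2 by DESeq2, 0 to 1 with 1 library left out (Tead4 without DMSO replicate 3), 1 without replicate 3 of both groups and 3 (Wwtr1, Tead4 and Ctgf) in that setting with the replicate block. Of the 45 other pathway genes, with 0 called, the counts in the same order were 6, 7, 0 to 4, 9 and 18, all higher. Beside these, 3.99% of all tested genes were called higher with the block, 3.62% by DESeq2 and 1.71% without DMSO replicate 3. That share was 2.59% without replicate 3 of both groups and 10.1% in that setting with the block. The cause of the shifts in these counts was not tested. The other scalings, limma-voom and no filter on low counts left each count within 1.5 times. The setting with the block and without replicate 3 leaves 1 residual degree of freedom per gene and was added after the data had been seen.

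Of the named genes, those that changed sign all missed the threshold. With 1 library left out, log2 fold changes ran from -0.05 to 0.04 for Yap1, -0.05 to 0.12 for Tead1, -0.26 to 0.35 for Cyr61, -0.17 to 0.06 for Vgll4, -0.18 to 0.28 for Cd44, -0.05 to 0.42 for Fmnl2 and -0.21 to 0.49 for Itgb6. Yap1 was at -0.00032 with no filter on low counts, -0.0018 with a mean of at least 10 CPM, -0.05 without DMSO replicate 3, -0.03 without 4OHT replicate 1, and -0.02 without replicate 3 of both groups, with or without the replicate block. Without DMSO replicate 3 the log2 fold change was -0.05 for Tead1, -0.26 for Cyr61, -0.18 for Cd44, -0.05 for Fmnl2 and -0.21 for Itgb6. Without 4OHT replicate 1 it was -0.01 for Tead1, -0.10 for Cyr61, -0.03 for Cd44 and -0.11 for Itgb6. Without replicate 3 of both groups it was -0.10 for Cyr61, -0.03 for Cd44, -0.05 for Itgb6 and 0.03 for Vgll4 (0.04 with the replicate block, where the other 3 were the same). Vgll4 was at 0.06 without 4OHT replicate 3. Wwtr1 (0.58 to 0.96), Tead4 (0.61 to 1.01), Ctgf (0.34 to 1.09), Lats2 (0.16 to 0.47) and Amotl2 (0.09 to 0.45) were higher after 4OHT in every alternative that tested them. Wwtr1 was not tested with a mean of at least 10 CPM, and its 69 counts in DMSO replicate 3 limit its precision.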

Other observations

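Ankrd1, a target gene of YAP and TAZ chosen here after its values had been seen, was near the limit of detection in DMSO replicate 3. That library held 2 counts of Ankrd1 (95% Poisson interval 0.242 to 7.22, counting error only), beside 59 and 57 in DMSO replicates 1 and 2 and 79, 89 and 44 in 4OHT replicates 1, 2 and 3. Its log2 fold change was 0.82 (SE 0.738, edgeR adjusted p = 0.661), and 0.28 without DMSO replicate 3 (adjusted p = 0.752).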
